A study of Mus musculus with 6 samples.

Results

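The 200 most abundant long intergenic RNAs (lincRNAs) of the mouse germinal vesicle (GV) oocyte were examined in oocytes from wild-type mice and from mice labelled knockout (KO). The deposited table has 25353 gene rows, of which 2027 carry the biotype lincRNA. The members are the 200 lincRNA rows with the highest mean over all 6 libraries, so these means chose them and are given below as a description. A mean of at least 10 normalized counts was also asked for. It removed no row, since the lowest member, Gm10745, had a mean of 77.2 and 536 lincRNA rows reached 10. The members just inside the limit were 1700028I16Rik (77.5) and Gm10745, and the rows just outside were AC163667.1 (75.9) and 2010110K18Rik (75.0). All 200 members passed the filter on low values, which asked for a value of at least 1 in 3 libraries.

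A lincRNA is a long transcript without a recognised coding sequence that lies between protein-coding genes. Most are made by RNA polymerase II and are spliced and polyadenylated like messenger RNAs, but for most no function is known, and many carry only the model names of annotation projects. A fully grown oocyte is arrested in the first meiotic prophase and largely stops transcription as its chromatin condenses, so its RNA content reflects both synthesis during growth and later stability. Many noncoding transcripts of mouse oocytes start in long terminal repeats of retrotransposons that act as oocyte promoters.

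There were 3 WT libraries and 3 KO libraries from C57BL/6J mice, each made from 5 pooled oocytes. Fully grown oocytes were released from ovaries of animals stated to be 8 weeks old, although the age field reads P1. A deletion of Mfn2 is named in the series title and design text, but the sample records give Mfn1 under genotype and in the protocol. Both encode mitofusins, GTPases of the outer mitochondrial membrane that fuse mitochondria. The driver of the deletion is not given in the sources used here, and nothing ties each pool to its own mouse, so p-values cover only the spread among pools, which may be technical.

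Mfn2 followed the title. Its WT libraries had 25.5, 38.1 and 32.3 normalized counts, and its KO libraries, with 5 reads each, had 5.25, 5.28 and 4.50 (log2 fold change -2.44, SE 0.38, adjusted p = 0.00487 by limma over 18762 tested genes). Mfn1 was at 340 ± 36.3 (SD, n = 3) in WT and 386 ± 10.3 (SD, n = 3) in KO, which did not pass (adjusted p = 0.482 by limma). Reads assigned to genes ranged from 6450191 to 7992598 per library. The 14 oocyte markers (zona pellucida and oocyte growth factor genes among them) summed to 196470 to 231340 normalized counts in KO and 240450 to 269170 in WT. The 12 granulosa cell markers summed to 532 to 722 in KO and to 636 to 2648 in WT, with the highest sum in WT replicate 1, and the 9 theca and stroma markers, of which 6 had a row, to 7.19 to 11.6 in KO and 17.5 to 74.3 in WT. Of the 8 immune markers, 4 of the 7 with a row were at 0 in every KO library. The immune sums were 468 to 610 in KO and 379 to 454 in WT. Called lower in KO by limma were 1 of 14 tested oocyte, 1 of 9 granulosa and 1 of 2 theca and stroma markers. None of the 3 tested immune markers was called, and no list had a marker called higher. The sums of endothelial and surface epithelium markers overlapped between the groups, with no call. The part of these other cells in the results below was not tested. Because the RNA was measured in bulk, fewer cells of a type and less RNA per cell cannot be told apart.

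The abundance of the members was concentrated in few genes. They held 89.4% of all normalized counts in lincRNA rows. The top 10 members took 30.8% of the members' counts and the top 50 took 72.7%. A mean of 1000 or more was reached by 30 members and a mean of 100 or more by 162, and the median member was at 215. Most have only a systematic name: 109 are named Gm, 43 are named Rik and 35 are named for a genomic clone.

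**Figure D1:**
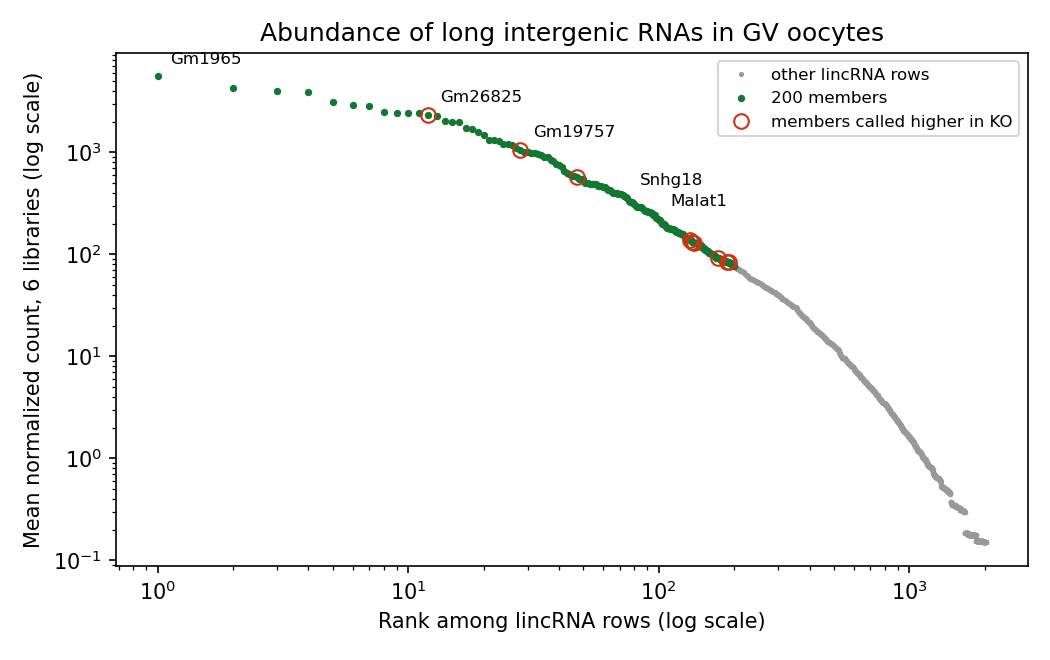
Mean normalized count over 6 libraries (y axis, log scale) against rank (x axis, log scale) for all 2027 lincRNA rows; green points are the 200 members, grey points the other rows, and red rings the 9 members called higher in KO. Gm1965 leads at 5549, and the called members lie between rank 12 and rank 190.

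The leading member was Gm1965 on chromosome 6 (89140994 to 89147388, plus strand, GRCm38), a transcript model of 3 exons. Its normalized counts, always given here in the order of replicates 1 to 3, were 5295, 5268 and 6876 for WT and 4880, 5264 and 5710 for KO. The groups overlapped. Gm839 lies 63.8 kb away on the minus strand and had rank 5, with 3151, 3108 and 3213 in WT and 3044, 3024 and 2936 in KO. Every KO library lay under every WT library there, but the difference was small (log2 fold change -0.07, SE 0.09, adjusted p = 0.752 by limma). A further member, 4933427D06Rik at rank 25, lies on the other side of Gm1965 at a gap of 31.0 kb and had a mean of 1200. This stretch of chromosome 6 thus held 3 of the 25 most abundant members.

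C86187 on chromosome 7 had rank 2 and Gm3143 on chromosome 3 had rank 3. C86187 was at 4131, 3893 and 4377 in WT and 4798, 4064 and 4142 in KO, and the groups overlapped. Gm3143 is an RNA of 675 bases whose nearest protein-coding row is Sox2, the pluripotency transcription factor, 47179 bases away. It was at 3887, 4373 and 3926 in WT and 4476.9, 3820 and 3662 in KO, again with overlap. Per kb of its longest annotated transcript Gm3143 had the highest level of all members with a length, 5962 normalized counts per kb, against a median of 199. AA545190 (rank 4, 3661 per kb) was at 3635, 3894 and 3970 in WT and 4692, 3873 and 3069 in KO. Its KO libraries spread on both sides of the WT libraries.

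Start regions and transcript ends were read for members that carry the results. RefSeq promoter windows (GRCm38.p6, 250 bases before to 50 bases after the start) were found by name for 89 members, and for 63 the RefSeq start lay within 100 bases of the start of the row. The windows of 3 members called higher in KO are shown first, followed by those of 3 of the 5 most abundant members. Capitals mark TATAAA, the TATA box core; TAATTG, a sequence bound by the oocyte homeobox protein NOBOX; and TGATTG, bound by the oocyte LIM-homeobox protein LHX8, each on either strand.
A530046M15Rik, chr13:15806993-15807292 (plus strand): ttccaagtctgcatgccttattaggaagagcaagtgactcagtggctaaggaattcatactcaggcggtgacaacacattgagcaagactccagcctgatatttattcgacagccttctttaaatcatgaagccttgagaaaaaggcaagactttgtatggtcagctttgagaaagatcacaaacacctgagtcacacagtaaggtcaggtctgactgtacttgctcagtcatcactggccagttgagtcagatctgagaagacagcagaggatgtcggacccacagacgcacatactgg
Gm19757, chr6:105492619-105492918 (minus strand): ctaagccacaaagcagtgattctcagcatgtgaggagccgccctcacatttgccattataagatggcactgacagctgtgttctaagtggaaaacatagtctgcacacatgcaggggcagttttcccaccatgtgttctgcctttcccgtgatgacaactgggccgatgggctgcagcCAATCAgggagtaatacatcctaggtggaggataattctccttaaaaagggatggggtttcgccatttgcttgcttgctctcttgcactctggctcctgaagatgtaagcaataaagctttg
1700116B05Rik, chr16:50783159-50783458 (plus strand): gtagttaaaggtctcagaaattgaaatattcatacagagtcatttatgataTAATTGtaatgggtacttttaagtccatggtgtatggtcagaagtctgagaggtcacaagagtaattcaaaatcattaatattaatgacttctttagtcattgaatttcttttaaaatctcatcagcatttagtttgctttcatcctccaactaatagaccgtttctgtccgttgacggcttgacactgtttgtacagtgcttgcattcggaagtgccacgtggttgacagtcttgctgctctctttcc
Gm839, chr6:89216130-89216429 (minus strand): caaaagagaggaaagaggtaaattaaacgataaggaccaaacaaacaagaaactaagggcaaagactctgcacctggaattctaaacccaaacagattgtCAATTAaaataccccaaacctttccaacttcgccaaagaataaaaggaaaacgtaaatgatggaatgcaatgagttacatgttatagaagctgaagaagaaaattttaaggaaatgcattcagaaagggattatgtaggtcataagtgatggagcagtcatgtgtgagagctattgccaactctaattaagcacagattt
Gm3143, chr3:34716613-34716912 (minus strand): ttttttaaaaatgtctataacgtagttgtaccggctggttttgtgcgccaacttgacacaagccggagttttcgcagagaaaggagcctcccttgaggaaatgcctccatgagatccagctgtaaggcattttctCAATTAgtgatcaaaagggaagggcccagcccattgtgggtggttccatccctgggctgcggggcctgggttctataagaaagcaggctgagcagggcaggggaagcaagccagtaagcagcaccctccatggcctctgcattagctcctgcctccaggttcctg
C86187, chr7:46975862-46976161 (minus strand): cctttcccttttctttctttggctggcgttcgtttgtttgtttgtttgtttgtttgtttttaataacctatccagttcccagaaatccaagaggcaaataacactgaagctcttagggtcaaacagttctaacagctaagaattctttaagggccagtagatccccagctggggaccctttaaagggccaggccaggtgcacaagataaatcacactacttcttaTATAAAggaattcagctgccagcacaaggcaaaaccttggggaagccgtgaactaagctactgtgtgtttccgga

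The window of A530046M15Rik held none of these 3 motifs, which says only that the letters are not in this window. The window of Gm1965, the most abundant member, is not shown and also held none of them. C86187 held TATAAA, in the stretch from 45 to 10 bases before the start where a TATA box lies, as did 2 of the 63 member windows in all (3.17%, against 2.22% of all 32851 RefSeq windows). Anywhere in the window and on either strand, TATAAA was in 9 of 63 member windows (14.3%, against 13.6% of all windows). TAATTG was in 13 (20.6%, against 8.00%). In several of these, among them Gm3143, Gm16497, Gm19299 and Gm8817, TAATTG lay within closely similar sequence, so they are not separate occurrences. TGATTG was in 15 (23.8%, against 14.04%). CCAAT, whose reverse can share bases with TGATTG, was in 24 (38.1%, against 37.4%), and GGGCGG in 16 (25.4%, against 35.7%). Base composition differed between the sets, with a median GC content of 49.7% in member windows, 52.7% in all windows and 59.0% in windows of protein-coding rows. The median ratio of observed to expected CpG was 0.246 in member windows, 0.384 in all and 0.680 in those of protein-coding rows. A ratio above 0.6, a usual criterion of CpG islands, was met by 13 member windows (20.6%), against 35.8% of all and 57.7% of those of protein-coding rows. These are descriptions of 1 window per member, without a test. The parts of base composition and of shared sequence in the motif shares were not tested.

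The cDNA was primed on poly(A) tails, so the last 50 bases of each longest annotated transcript (GENCODE M21) were searched for the polyadenylation hexamers AATAAA and ATTAAA. The ends of 5 members are shown: 2 called members and 3 of the most abundant. Capitals mark the last AATAAA, or ATTAAA where AATAAA is absent. The end of A530046M15Rik also holds an earlier AATAAA and an ATTAAA, which are not marked.
A530046M15Rik: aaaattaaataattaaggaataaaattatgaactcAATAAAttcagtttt
Gm19757: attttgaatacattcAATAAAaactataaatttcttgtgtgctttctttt
Gm839: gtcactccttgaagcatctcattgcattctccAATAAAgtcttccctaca
AA545190: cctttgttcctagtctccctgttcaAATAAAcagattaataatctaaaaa
Gm3143: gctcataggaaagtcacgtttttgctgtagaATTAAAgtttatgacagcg

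AATAAA was present in 94 of the 199 members with a matched transcript (47.2%), in 38.3% of the other lincRNA rows and in 59.1% of protein-coding rows. With ATTAAA included the shares were 58.3%, 48.9% and 72.5%. Over all matched rows they were 46.6% for AATAAA and 57.8% for either hexamer, close to the members. In the 94 members the last AATAAA stood a median of 15 bases before the annotated end. In A530046M15Rik 9 bases followed it and in Gm19757 29. Gm1965, the most abundant member, has neither hexamer in its last 50 annotated bases. The share of complete annotated ends among these models was not tested.

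By structure the members were short and spliced. Their longest annotated transcripts had a median of 1221 bases and 3 exons, close to the 1205 bases and 3 exons of the other lincRNA rows, against 3134 bases and 7 exons in protein-coding rows. Of the 199 with a matched transcript, 6 were single-exon models. By position, 18 overlapped the span of their nearest protein-coding row, 38 lay within 10 kb of it without overlap and 67 lay 100 kb or more away. The median gap was 40.4 kb. In 11 members a protein-coding gene started within 1 kb in the opposite direction. Chromosome 6 held 19 members (9.5%, against 5.14% of tested rows of all biotypes) and chromosome 13 held 17 (8.5%, against 4.67%). Chromosome 12 held 16 (8%, against 4.03%). Below their share of tested rows lay chromosome 11 with 4 (2%, against 6.98%) and chromosome 4 with 2 (1%, against 6.26%), among others.

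Near-identical copies and overlapping rows limit what a count can be assigned to. Of 75-base windows of a member's transcript, 10% or more matched another gene with at most 1 mismatch in 39 members, and 50% or more in 18. No window was shared in 137 members. The span of 53 members overlapped another row, in 40 of them on the opposite strand, and the library kit keeps no strand. Gm10076 (rank 26) shared 84.6% of its windows with Rpl41, a ribosomal protein gene, and Platr30 (rank 19) and Gm17575 (rank 23), 17.2 kb apart on chromosome 3, shared 92.0% and 92.2% of theirs, mostly with each other. These levels are therefore uncertain.

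Between KO and WT, 9 of the 200 members were higher in KO (4.5%) and 0 were lower, by limma with Benjamini-Hochberg adjustment over all genes at a threshold of 0.05. Over all 18762 tested genes, 351 were higher in KO (1.87%) and 264 were lower (1.41%). Among the 6808 protein-coding rows in the members' abundance range, 233 were higher (3.42%) and 173 lower (2.54%). The share of members called higher thus lay near that of protein-coding rows of this range. The other lincRNA rows, of which 955 were tested, had 7 higher and 1 lower. At an unadjusted p under 0.05, 35 members were higher (17.5%) and 7 lower (3.5%). The shares were 9.16% and 8.83% of all tested genes and 12.8% and 13.3% of the protein-coding rows of this range. edgeR called 11 members higher and 0 lower, against 451 higher (3.45%) and 338 lower (2.58%) of its 13078 tested genes. DESeq2 called 14 higher and 0 lower, against 463 higher (4.17%) and 401 lower (3.61%) of the 11098 genes to which it gave an adjusted p.

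The members' median log2 fold change was 0.07, against -0.01 over all tested genes and -0.02 over protein-coding rows of the same range. It was above 0 in 120 members and below 0 in 80, and ranged from -0.58 in Gm7437 to 1.19 in A530046M15Rik. In 33 members every KO library lay above every WT library (16.5%, against 11.5% of all tested genes and 15.0% of these protein-coding rows). In 8 members every KO library lay below every WT library (4%, against 11.7% and 16.5%). The spread within groups was somewhat wider than in messenger RNAs: the median within-group SD was 0.21 on the log2 scale in members and 0.16 in protein-coding rows of the same range. These shares have no test of their own.

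**Figure D2:**
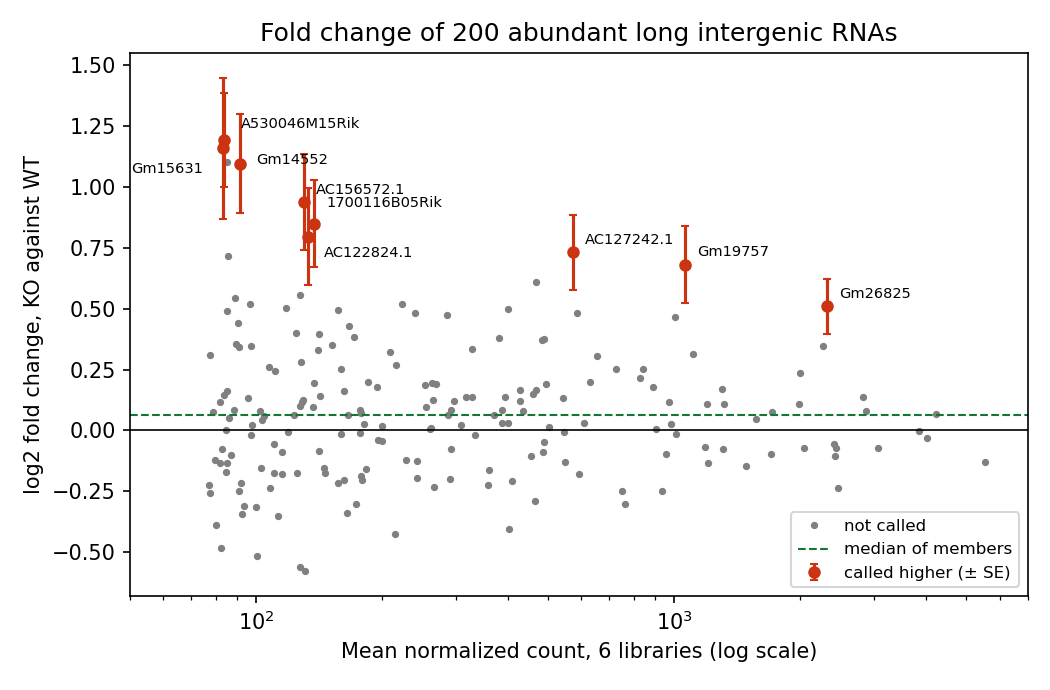
log2 fold change of KO against WT (y axis) against the mean normalized count over 6 libraries (x axis, log scale) for the 200 members; red points with bars are the 9 called members with their SE, grey points the rest, and the dashed line the median of the members. The 4 members past a log2 fold change of 1 have means below 100, and the most abundant members lie close to 0.

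The count of members called higher depended on single libraries. So did that over all genes, given here in parentheses, which was 351 in the full fit. Without WT replicate 3, 2 members were higher (71 genes). Without WT replicate 1, WT replicate 2 or KO replicate 2 there were 5 each (172, 130 and 181 genes). Without KO replicate 3 there were 10 (194 genes) and without KO replicate 1 there were 11 (459 genes). Without KO replicate 1, 430 genes over all were lower, against 264 in the full fit, and 2 members also became lower in KO. These were Gm8075 (228, 249 and 254 in WT; 240, 161 and 154 in KO) and Gm31816 (164, 162 and 124 in WT; 138, 112 and 65.6 in KO), both with their highest KO value in replicate 1.

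The libraries differed in their overall lincRNA level. The 200 members together took 1.44%, 1.55% and 1.47% of all normalized counts of the WT libraries and 1.72%, 1.61% and 1.53% of the KO libraries. The means were 1.49% ± 0.057 (SD, n = 3) and 1.62% ± 0.095 (SD, n = 3), and KO replicate 3 lay below WT replicate 2. KO replicate 1 held the highest of the 6 values for 76 members, KO replicate 3 the lowest for 64 and WT replicate 1 the lowest for 45. The highest and the lowest KO library stood further apart than the group means did, whereas KO replicate 2 was nearer to each of them. The part of this library shift in single members was not tested.

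**Figure D3:**
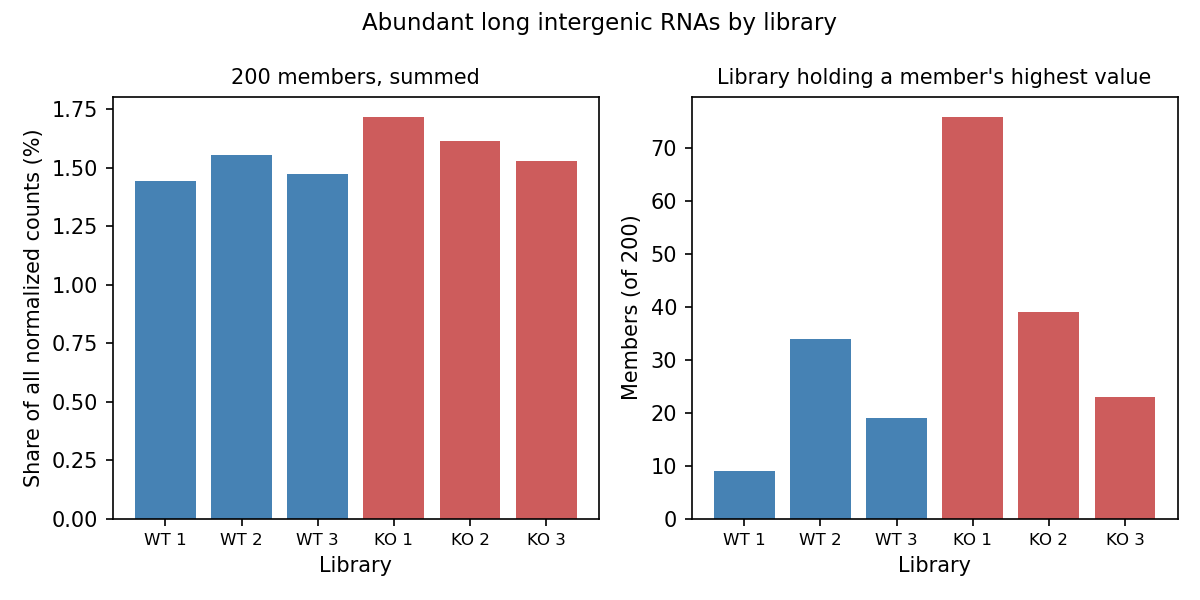
Left, summed share of the 200 members in all normalized counts of each library (percent); right, number of members whose highest value of the 6 libraries is in that library. Blue bars are WT and red bars KO libraries; KO replicate 1 leads in both, at 1.72% and 76 members.

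A530046M15Rik was called with the smallest p among the members. It is a spliced RNA of 5 exons on chromosome 13 (15807243 to 15827537, plus strand) that shares no window with another gene. It was at 52.1, 50.2 and 48.9 in WT and at 127, 118 and 105 in KO. The lowest KO library was above the highest WT library by more than the range within either group. The change was 2.29-fold (log2 fold change 1.19, SE 0.19, adjusted p = 0.00538 by limma), and of the 9 called members only this one was called in all 6 fits that left out a library.

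The nearest protein-coding gene to A530046M15Rik is Gli3, a zinc finger transcription factor of the hedgehog pathway, whose span ends 77.2 kb upstream on the same strand. Gli3 was at 14.4, 33.5 and 37.9 in WT and at 163, 107 and 147 in KO (log2 fold change 2.33, SE 0.31, adjusted p = 0.00149 by limma), so both genes rose. Inhba, the activin beta A subunit gene 184 kb to the other side, was at 23.3, 1.86 and 6.46 in WT and 2.10, 9.51 and 8.09 in KO, with no call (adjusted p = 0.887 by limma). Inhba is also a granulosa cell marker.

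Gm19757 and Gm15631 lie 180 kb apart on the minus strand of chromosome 6, both upstream of Cntn4, a neuronal cell adhesion gene. Gm19757 (105481266 to 105492668, rank 28) was at 890, 975 and 598 in WT and 1420, 1088 and 1390 in KO, without overlap (log2 fold change 0.68, SE 0.16, adjusted p = 0.0289 by limma). Gm15631 (105673064 to 105677581), much less abundant, was at 31.1, 78.1 and 48.9 in WT and 86.1, 149 and 107 in KO (log2 fold change 1.16, SE 0.29, adjusted p = 0.0397 by limma). Its lowest KO library was close to its highest WT library. Gm15631 starts 79 bases from Cntn4 in the opposite direction. Cntn4 itself was at 126, 117 and 137 in WT and 119, 128 and 83.6 in KO, with overlap (adjusted p = 0.597 by limma).

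1700116B05Rik, on chromosome 16 (50783409 to 50784091), is a 2-exon RNA of 414 bases with no shared window, 351019 bases from the nearest protein-coding row, Bbx. It was at 90.9, 112 and 90.5 in WT and 192, 145 and 196 in KO (1.80-fold, log2 fold change 0.85, SE 0.18, adjusted p = 0.0178 by limma). The groups were apart. Bbx, an HMG-box gene, did not pass (adjusted p = 0.791).

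AC127242.1 on chromosome 12 (19560110 to 19564157) was at 441, 489 and 353 in WT and 883, 593 and 669 in KO (log2 fold change 0.73, SE 0.15, adjusted p = 0.0181 by limma). A share of 25% of its windows matched other genes, 24 in all, so its level is uncertain. AC122824.1 on chromosome 13 (10517687 to 10538811) was at 81.0, 111 and 96.0 in WT and 223, 143 and 144 in KO (log2 fold change 0.80, SE 0.20, adjusted p = 0.0405 by limma). KO replicate 1 stood well above the other KO libraries. Its span lies within that of Gm26861, an antisense RNA row on the same strand that had at most 2 reads in any library.

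**Figure D4:**
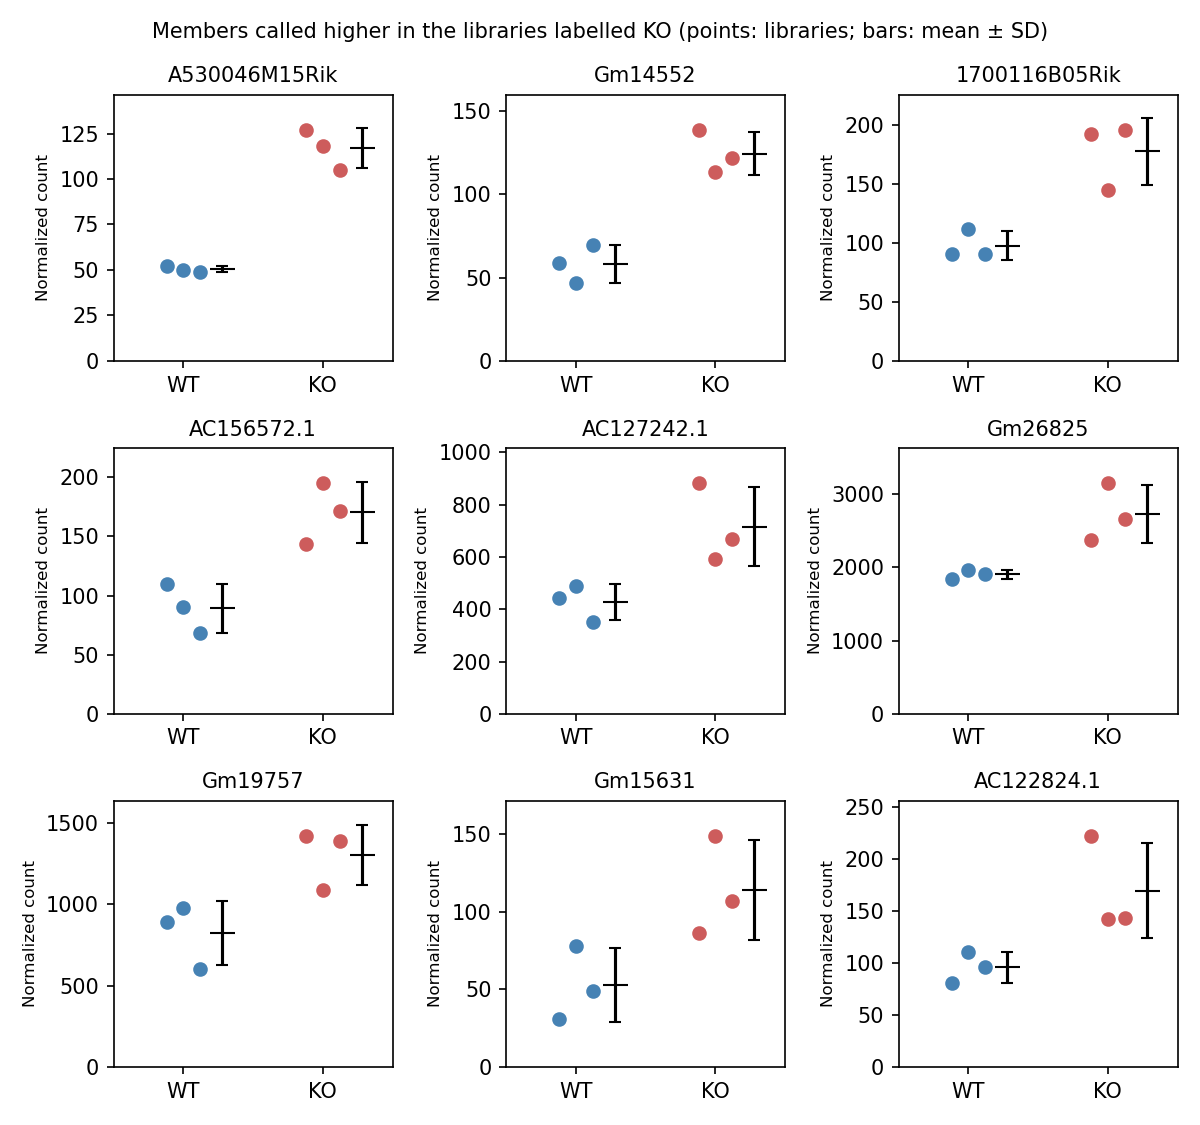
Normalized counts (y axes, from 0) of the 9 members called higher in KO, 1 panel per gene; points are libraries, WT in blue and KO in red, and black bars give the mean ± SD of 3 libraries. In each panel every KO point lies above every WT point, by the widest relative gap in A530046M15Rik.

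The other 3 called members have close copies or an overlapping row, and their calls cannot be assigned to 1 locus. Gm26825 (rank 12, chromosome 5, 5781530 to 5783636) was at 1845, 1969 and 1905 in WT and 2377, 3158 and 2664 in KO (1.42-fold, log2 fold change 0.51, SE 0.11, adjusted p = 0.0221 by limma). It shares 91.1% of its windows with other genes and overlaps Gm15459, a processed pseudogene on the opposite strand. Gm15459 was at 3874, 3490 and 4976 in WT and 1057, 3983 and 3597 in KO, where replicate 1 stood far below the rest. The sum of both rows was 5719, 5459 and 6881 in WT and 3434, 7141 and 6261 in KO, and these overlapped. The share of that sum assigned to Gm26825 was 32.3%, 36.1% and 27.7% in WT and 69.2%, 44.2% and 42.5% in KO.

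AC156572.1 (chromosome 13, 62813969 to 62815523) showed the same arrangement with Gm7049, a processed pseudogene row on the opposite strand. It was at 110, 90.2 and 68.3 in WT and 144, 195 and 172 in KO (log2 fold change 0.94, SE 0.20, adjusted p = 0.0181 by limma). Gm7049 was at 1215, 962 and 1225 in WT and 658, 942 and 950 in KO (log2 fold change -0.43, SE 0.14, adjusted p = 0.119 by limma). Every KO library of Gm7049 was below every WT library. AC156572.1 shares 90.9% of its windows, mostly with Me1, the cytosolic malic enzyme gene, which was at 2669 ± 393 (SD, n = 3) in WT and 2643 ± 339 (SD, n = 3) in KO.

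Gm14552 on the X chromosome (34974042 to 35009265) is 1 of 7 members of an X-linked copy family, in which 79.2% to 100% of a member's windows matched other genes, mainly further copies. Gm14552 was at 58.8, 46.5 and 69.3 in WT and 139, 113 and 121 in KO (2.14-fold, log2 fold change 1.10, SE 0.20, adjusted p = 0.0102 by limma). The most abundant copy, Gm2309, was at 985, 899 and 1076 in WT and 1194, 1175 and 1310 in KO (log2 fold change 0.32, SE 0.11), and E330016L19Rik was at 558, 530 and 671 in WT and 746, 668 and 751 in KO (log2 fold change 0.30, SE 0.12). Neither passed (adjusted p = 0.127 and 0.193 by limma). Gm7437 went the other way, with 136, 143 and 192 in WT and 107, 95.1 and 110 in KO (log2 fold change -0.58, SE 0.18, adjusted p = 0.0862 by limma). Gm2101, Gm2165 and Gm3669 had log2 fold changes of -0.51, -0.34 and 0.00. Summed over the 7 copies, the values were 2007, 1934 and 2342 in WT and 2458, 2259 and 2562 in KO, where KO replicate 2 lay below WT replicate 3.

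Except for A530046M15Rik, each called member lost its call without some library. AC127242.1 lost it without WT replicate 3 (adjusted p = 0.111) and Gm14552 without WT replicate 2 (0.0531). Gm19757 lost it without WT replicate 3 or KO replicate 3 (0.0834 to 0.137), and also after removal of each library's trend on GC and length (log2 fold change 0.50, adjusted p = 0.0941). 1700116B05Rik lost it without WT replicate 1, WT replicate 3 or KO replicate 3 (0.0593 to 0.0910), and AC156572.1 without WT replicate 2, WT replicate 3 or KO replicate 2 (0.0638 to 0.104). Gm26825 lost it without any WT replicate or without KO replicate 2 (0.0745 to 0.109), and Gm15631 without WT replicate 1, WT replicate 3, KO replicate 2 or KO replicate 3 (0.0814 to 0.146). AC122824.1 kept its call only without KO replicate 3 (0.0543 to 0.137 in the other fits). All values are adjusted p from limma.

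The 10 most abundant members did not pass the test. Their log2 fold changes ran from -0.24 to 0.14, with SE of 0.09 to 0.13. The largest of these was in Gm1070, which overlaps Smyd1, a muscle histone methyltransferase gene, on the opposite strand. Gm1070 was at 2764, 2597 and 2645 in WT and 2305, 2141 and 2348 in KO, without overlap (log2 fold change -0.24, SE 0.10, adjusted p = 0.207 by limma). A730082K24Rik was at 2793 ± 140 (SD, n = 3) in WT and 2958 ± 329 (SD, n = 3) in KO, and Gm38025 at 2691 ± 140 and 2968 ± 253 (SD, n = 3 each). Gm42980 was at 2270, 2633 and 2618 in WT and 2421, 2413 and 2306 in KO, and Gm11827 at 2450, 2621 and 2426 in WT and 2782, 2411 and 1873 in KO. Their groups overlapped. A p that misses the threshold does not show equal levels.

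Few members are named long RNAs of known role. Malat1, an abundant nuclear RNA of splicing speckles in somatic cells, ranked 99 here, with 352, 70.7 and 172 in WT and 160, 207 and 382 in KO. It varied about as much within each group as over all libraries (adjusted p = 0.552 by limma). Snhg18 and Snhg6, whose introns carry small nucleolar RNAs, were at 386 ± 51.8 and 169 ± 30.1 in WT and at 331 ± 50.9 and 144 ± 12.4 in KO (n = 3 each, SD), with no call. 1700020I14Rik was at 81.0, 72.5 and 80.3 in WT and 112, 77.1 and 69.2 in KO, and only KO replicate 1 stood out. Pvt1, the neighbour of Myc, was at 335, 365 and 453 in WT and 419, 397 and 355 in KO.

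Of listed nuclear body and structural long RNAs, 8 were tested, of which 1 rose and 0 fell, with a median log2 fold change of 0.31. This median includes rows of low counts without a call. Gm26917 had means of 2.41 in WT and 7.76 in KO (log2 fold change 1.43), and Gm42418 0.62 and 6.27 (2.03). Pantr1 had 3.52 and 1.95 (-0.79). The one called higher was Tug1, which is annotated as antisense and is no member (WT 254 ± 6.06, KO 359 ± 23.7, n = 3 each, SD; adjusted p = 0.0448 by limma). Its call was lost without any 1 of the 6 libraries (0.0550 to 0.14). None of the 18 tested small nucleolar RNA host genes, 6 tested imprinted or X inactivation RNAs and 4 tested microRNA host RNAs passed in either direction by limma. Their median log2 fold changes were 0.17, 0.14 and 0.19.

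Listed genes for proteins that act on such RNAs are read against the 1.87% higher and 1.41% lower of all tested genes. Of 22 genes of the nuclear RNA exosome and its adaptors, which degrade noncoding transcripts in the nucleus, 1 rose and 0 fell. This was C1d, an exosome cofactor, at 63.2, 37.2 and 23.1 in WT and 132, 118 and 219 in KO (log2 fold change 1.96, SE 0.31, adjusted p = 0.00487 by limma). Of 14 paraspeckle and Xist partner proteins 0 passed in either direction. The smallest p was that of Hnrnpk (log2 fold change 0.34, adjusted p = 0.106 by limma).

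Of 17 genes for small RNA proteins, 1 rose and 1 fell. Dicer1, which cuts double-stranded RNA into the small interfering RNAs of the mouse oocyte, fell from 2260 ± 46.0 to 1711 ± 123 in KO (n = 3 each, SD; log2 fold change -0.40, adjusted p = 0.0389 by limma). Piwil2, a PIWI protein gene, was at 0, 8.37 and 3.69 in WT and 12.6, 22.2 and 30.6 in KO (adjusted p = 0.0440 by limma). Dicer1 lost its call without any WT replicate or without KO replicate 2 (0.107 to 0.138), and Piwil2 without WT replicate 1, WT replicate 3, KO replicate 2 or KO replicate 3 (0.104 to 0.135).

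Of 22 genes for maternal RNA storage and poly(A) tail proteins, 1 rose and 1 fell. Zar1, an oocyte RNA-binding protein, was at 8608, 7951 and 7470 in WT and 5899, 4966 and 5558 in KO (log2 fold change -0.55, SE 0.10, adjusted p = 0.0110 by limma). Ybx2, the germ cell Y-box protein that packages stored messenger RNA, was at 272, 309 and 259 in WT and 408, 371 and 432 in KO (log2 fold change 0.53, SE 0.13, adjusted p = 0.0382 by limma). The groups were apart in both. Zar1 lost its call without WT replicate 1, WT replicate 2 or KO replicate 2 (0.0545 to 0.0604), and Ybx2 in every such fit except that without KO replicate 1 (0.0617 to 0.155).

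The members had 188 distinct nearest protein-coding rows, of which 164 were tested, 7 were higher in KO (4.27%) and 6 lower (3.66%). The shares were 1.87% and 1.41% of all tested genes, which include other biotypes. They were 3.42% and 2.54% of the protein-coding rows in the members' abundance range. Those rows were more abundant, with a median mean of 326 against 53.9 in the neighbours. Of the 7 tested neighbours of called members, only Gli3 was called. Those not described above were Chrm3, Dock11, Steap1 and Fbp2, at log2 fold changes of -0.97, -0.04, 0.20 and 0.24. A further neighbour, Gm10479, was not tested. The 13 called neighbours were nearest to 14 members, of which 1 was called. In 9 of these 14 the fold changes of member and neighbour had the same sign and in 5 the opposite sign, beside 86 of the 173 members with a tested neighbour. Ahr, the aryl hydrocarbon receptor gene, rose (log2 fold change 0.75, adjusted p = 0.0447 by limma), and 9130015A21Rik, 137244 bases away, was at 0.18. Myom2, a sarcomere protein gene, fell (-0.71, adjusted p = 0.0221 by limma), and Gm7706, 7503 bases away, was at -0.39. Ctnnb1, the beta-catenin gene, rose (0.54, adjusted p = 0.0221 by limma), and AC118476.3, 134334 bases away, was at -0.10. Ctnnb1 lost its call without WT replicate 1 or WT replicate 3 (0.0907 to 0.116), Myom2 without any WT replicate or KO replicate 2 (0.0592 to 0.116), and Ahr without any 1 of the 6 libraries (0.0548 to 0.147). Lmo7 fell (-0.66, adjusted p = 0.00572 by limma), and AC080021.1, 502313 bases away, was at 0.19. Lmo7 and Gli3 kept their calls in all 6 fits that left out a library. The other called neighbours each lost theirs in some fit. Steap2, a metalloreductase gene near Gm26825 but not its nearest row, was at 192, 179 and 196 in WT and 363, 264 and 295 in KO (log2 fold change 0.69, SE 0.15, adjusted p = 0.0198 by limma). That call was lost without any WT replicate (0.0587 to 0.0878).

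Gm17322 overlaps Cyp11a1, the steroid side-chain cleavage enzyme and a granulosa marker. Cyp11a1 was at 604, 13.9 and 92.3 in WT and 3.15, 5.28 and 4.50 in KO (log2 fold change -4.17, SE 0.83, adjusted p = 0.0135 by limma). It was high in WT replicate 1, and its call was lost without WT replicate 3 (0.0782). Gm17322 was at 86.5, 108 and 97.9 in WT and 103, 111 and 138 in KO, lowest in the library where Cyp11a1 was highest.

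**Figure D5:**
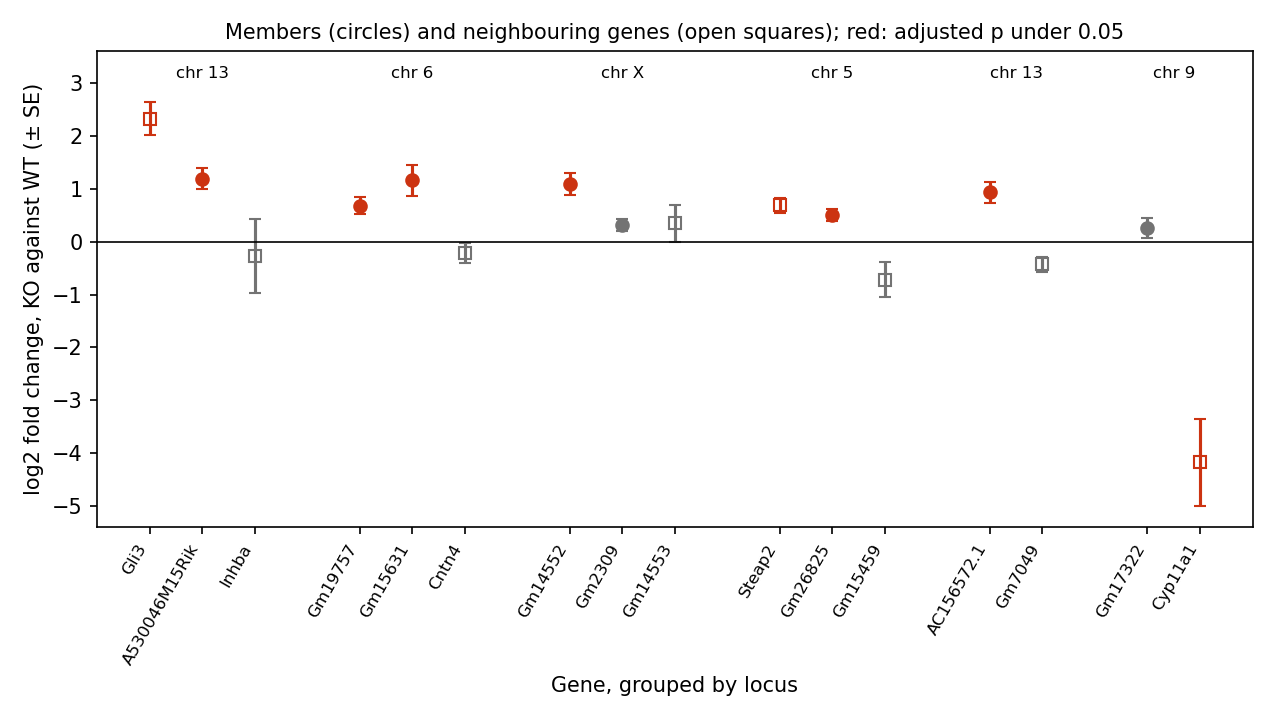
log2 fold change of KO against WT with its SE (y axis) for members (filled circles) and neighbouring or overlapping rows (open squares), grouped by locus; red marks an adjusted p under 0.05 by limma. A530046M15Rik (1.19) and Gli3 (2.33) are both above 0, whereas Gm26825 (0.51) and AC156572.1 (0.94) are above 0 beside an overlapping pseudogene row below 0.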

How the data were processed

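RNA of 6 libraries (3 WT, 3 KO) was made into cDNA with Smart-Seq2 and Nextera XT, per the labels' protocols. Tools named in the submitters' processing notes are cutadapt, FastQC, STAR, DESeq, DESeq2, with GRCm38 (mm10) as build; their versions are not given there. The deposited values are a signal: per the file headers, reads that the authors scaled by DESeq2 size factors. Dividing by the value of 1 read gave whole reads for 100% of values above 0 (tolerance 0.1 reads). Totals were 6450191, 7624575 and 7992598 in WT and 6583404, 6626841 and 7615374 in KO. A count of 0 allows up to 3 reads, 0.375 to 0.465 CPM, for counting error only, since reads carry no molecular identifiers.

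Groups came from the sample titles. Rows reaching a value of 1 in 3 or more libraries were compared on log2(value + 1), a scale that understates changes of low genes, with limma-trend (limma 3.58.1, R 4.3.3) and Benjamini-Hochberg adjustment. Every adjusted p is from limma unless another tool is named. edgeR 4.0.16 and DESeq2 1.42.0 ran on recovered reads (edgeR: 13078 genes). Rows were matched to GENCODE M21 (199 of 200 members). Positions are GRCm38, with 1 base taken off the deposited end. Windows of 75 bases, every 25 bases, were aligned with minimap2 2.31-r1302.

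The members and lists were chosen with earlier results of these data known. Named by rule were Mfn1, Mfn2, the top 10 members, called members with their nearest protein-coding gene, members in the lists, and up to 4 called genes of each protein list or those of smallest p. The motifs other than TATAAA, the gene pairs and copies, Inhba, Steap2, Tug1, Pvt1, Gm17322 and the other genes outside that rule were chosen after their values were seen.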

Additional observations from a re-analysis of the deposited data

How the results depend on the processing

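The members' median log2 fold change stayed above 0 in all alternatives run (0.02 to 0.10). The members called higher numbered 14 with DESeq2, 3 among the 100 most abundant, 5 among members with under 10% of windows shared and 2 to 11 with 1 library left out. Members called lower numbered 0 to 2 with 1 library left out and 0 in the other alternatives. All 9 called members were also called by edgeR and DESeq2, and none changed direction in any alternative. Over all genes, leaving out 1 library gave 71 to 459 higher and 41 to 430 lower, and DESeq2 called 401 lower. After removal of each library's GC and length trend, 310 were higher and 350 lower, so 47.0% of calls were higher, against 57.1%. Without single libraries that share ran from 51.2% to 68.8%. A minimum mean of 50 could change no member, since the lowest member mean was 77.2.

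Replicate numbers did not pair the samples: the correlations of deviations between same-numbered libraries were -0.077, -0.018 and -0.036, and no library correlated best with its own number. The replicate block gave 9 members higher and 0 lower (8 of the 9 called members among them, without AC122824.1 at an adjusted p of 0.0592 by limma) and 246 higher and 175 lower over all genes.

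Over 23 named members and 15 alternatives, 305 values kept their direction and call, 25 lost the call (23 of them with 1 library left out, the others Gm19757 after removal of the GC and length trend and AC122824.1 with the block) and 15 changed sign, all of the latter in members without a call. AA545190 turned to 0.0138 with edgeR, 0.0164 with DESeq2 and 0.00763 with TMM scaling, and with 1 library left out it ran from -0.152 to 0.155, above 0 without WT replicate 2 (0.00839), WT replicate 3 (0.0224) or KO replicate 3. After removal of the GC and length trend Gm3143 was at 0.106 and 1700020I14Rik at -0.0484. With 1 library left out, Gm3143 ran from -0.117 to 0.0279, and was above 0 without WT replicate 2 (0.0237) or KO replicate 3. C86187 ran from -0.00899 (without KO replicate 1) to 0.111, A730082K24Rik from -0.00934 (without KO replicate 2) to 0.144, Gm11827 from -0.233 to 0.0525 (without KO replicate 3), Malat1 from -0.0768 (without WT replicate 2) to 1.07, and 1700020I14Rik from -0.0899 (without KO replicate 1) to 0.256. The cause was not tested. The lowest single value of a member was 31.1 normalized counts, so counting error weighs most on the members of low mean.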

Other observations

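Members called by a count test but not by limma numbered 5, all of them higher in KO. DESeq2 called Gm17751 (rank 13, log2 fold change 0.35, DESeq2 adjusted p = 0.0247), AC131117.1 (0.48, 0.0161), Gm4961 (0.61, 0.0185), Gm33819 (0.50, 0.0187) and Gm8817 (1.10, 0.0401). edgeR also called AC131117.1 (adjusted p = 0.0398) and Gm33819 (0.0394). With limma their adjusted p-values ran from 0.0507 to 0.0931. Gm8817, on the X chromosome, was at 38.8, 85.6 and 36.0 in WT and 103, 184 and 64.7 in KO, so its groups overlapped.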
